A study of Mus musculus with 72 samples.

Results

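Of the 62069 CTCF peaks called in WT replicate 1 of mouse embryonic stem cells (ESCs), 59189 overlapped a CTCF peak of WT replicate 2, and 54457 of these lay more than 1000 bp from any protein-coding transcript start (GENCODE vM1, mm9). The sites described here are the 1223 distal CTCF sites that also overlapped a NANOG peak in both WT replicates, 2.25% of the distal CTCF sites (95% Wilson interval 2.12 to 2.37, counting error only). They were compared with 52611 distal CTCF sites without a NANOG peak in either WT library, called other distal CTCF sites below, and with 39955 distal NANOG sites of both WT libraries without a CTCF peak. A further 623 distal CTCF sites had NANOG in 1 WT library and entered neither set, and 318 sites with both factors lay within 1000 bp of a start. The 2 chosen sites nearest the limit lay 1003 bp from a start of L1td1 and 1007 bp from one of Park2, with CTCF fold enrichments of 26.6 and 14.9 in WT replicate 1. The 2 nearest on the other side lay 974 bp from Cdx1 and 967 bp from Mtrf1l, with 20.7 and 20.6.

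The chromatin came from WT (Hmgn1+/+n2+/+) ESCs and from double-knockout DKO (Hmgn1-/-n2-/-) ESCs of the C57BL/6 strain, with 2 biological replicates per genotype and antibody. DKO cells lack HMGN1 and HMGN2, nucleosome-binding proteins that the study examined for their part in transcription factor occupancy. ChIP-seq peaks were called by the authors in each library against input DNA. Fold enrichment is the ratio of the read pileup at the summit to that of its surroundings and input, and −log10 q is the evidence for the peak. The CTCF lists held 62069 and 62772 peaks in WT and 64629 and 64634 in DKO, and the NANOG lists 52307 and 53524 in WT and 62697 and 64486 in DKO. The lists hold no read counts, so the depth behind a value is unknown. In bulk chromatin, fewer cells with a bound site and less binding per cell cannot be told apart. Within 1000 bp of Hmgn1 and Hmgn2 the 20 ESC lists held only 1 peak, a NANOG peak of WT replicate 2 at Hmgn2, so the peak lists do not check the deletions.

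CTCF is a zinc finger protein that recognises a long DNA motif, and together with cohesin it anchors chromatin loops and domain borders. NANOG is a homeodomain factor of the pluripotency network that binds distal enhancers in ESCs, often beside OCT4 and SOX2, which share a composite DNA element. A distal CTCF site that overlaps NANOG can therefore hold a CTCF motif, an enhancer element or both.

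The following stretches of mm9 show both kinds of sequence at sites described below, with 14 bases on each side of the match. At Tmem233, Sost, Utf1, Lifr, Gm6578, Tnfrsf18, Itih5, Rad18 and Tmem98 the capitals mark the CTCF core motif nearest the CTCF summit of WT replicate 1. At Gm4609, Parvg and Olfr1431 they mark TTGTNATGC, the composite element of OCT4 and SOX2, nearest the NANOG summit.
Tmem233, highest CTCF, chr5:116566660-116566699, plus strand: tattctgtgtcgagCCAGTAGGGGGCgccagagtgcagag
Sost, highest CTCF, chr11:101830342-101830381, minus strand: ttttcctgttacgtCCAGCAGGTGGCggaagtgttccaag
Utf1, pluripotency gene, chr7:147135864-147135903, plus strand: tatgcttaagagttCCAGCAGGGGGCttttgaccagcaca
Lifr, pluripotency gene, chr15:7214005-7214044, minus strand: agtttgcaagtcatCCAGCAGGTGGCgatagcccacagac
Gm6578, CTCF lower in DKO, chr6:12075539-12075578, minus strand: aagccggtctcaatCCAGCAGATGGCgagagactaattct
Tnfrsf18, CTCF lower in DKO, chr4:155407805-155407844, minus strand: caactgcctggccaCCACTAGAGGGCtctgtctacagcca
Itih5, CTCF and NANOG higher in DKO, chr2:10064493-10064532, plus strand: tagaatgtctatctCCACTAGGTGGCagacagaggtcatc
Rad18, CTCF higher in DKO, chr6:112667317-112667356, plus strand: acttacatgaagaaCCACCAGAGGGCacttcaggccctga
Tmem98, NANOG higher in DKO, chr11:80631742-80631781, minus strand: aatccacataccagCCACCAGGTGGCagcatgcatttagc
Gm4609, highest NANOG, chr3:121848429-121848465, minus strand: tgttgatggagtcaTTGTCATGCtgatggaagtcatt
Parvg, NANOG lower in DKO, chr15:84112756-84112792, minus strand: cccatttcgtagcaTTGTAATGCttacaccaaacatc
Olfr1431, NANOG lower in DKO, chr19:12273884-12273920, plus strand: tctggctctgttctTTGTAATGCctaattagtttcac

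The CTCF core lay within 100 bp of the CTCF summit, on either strand, at 156 of the 1223 sites, or 12.8% (Wilson interval 11 to 14.7). It lay there at 14.9% (14.6 to 15.2) of other distal CTCF sites, and at positions 5000 bp away from the summits at 0.327% and 0.220%. The order differed by CTCF strength, as given below. The strict spelling of the core leaves out variants that CTCF also binds. With the shorter CCANNAGGG, which overlaps the core in part of its letters, the order was the reverse, with 16.7% (14.7 to 18.9) of the sites and 13.9% (13.6 to 14.2) of other distal CTCF sites holding a match. Around the NANOG summits of the chosen sites TTGTNATGC occurred at 4.74% (3.69 to 6.08), beside 3.83% (3.65 to 4.03) of the distal NANOG sites without CTCF and 0.245% of positions 5000 bp away. TAATGG, a short NANOG motif, was found at the NANOG summits of 11.5% (9.86 to 13.4) of the chosen sites and 14.2% (13.8 to 14.5) of the NANOG sites without CTCF, against 7.77% of positions 5000 bp away. Sequence at the CTCF summits was richer in G and C, with a median of 50.7% against 47.3% at other distal CTCF sites.

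CTCF and NANOG summits lay close together but seldom at the same position. In WT the median distance between them was 133 bp and 139 bp in the 2 replicates, while CTCF summits of the 2 WT libraries lay a median of 9 bp apart and NANOG summits 20 bp apart. Summits lay within 50 bp of each other at 209 sites (17.1%) and over 150 bp apart at 547 sites (44.7%). In DKO the median distance was 138 bp and 140.0 bp among the 1078 and 1103 sites that kept both peaks in the library. The overlap of the called peaks ranged from 1 bp to 564 bp in WT replicate 1, and was under 50 bp at 78 sites.

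**Figure D1:**
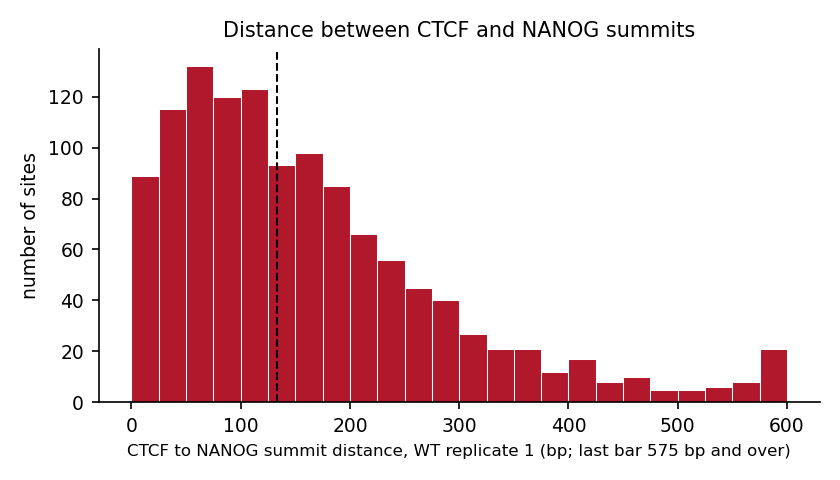
Histogram of the distance in bp from the CTCF summit to the NANOG summit in WT replicate 1 at the 1223 distal CTCF sites overlapping NANOG. The dashed line marks the median of 133 bp, and 44.7% of the sites lie over 150 bp from 0.

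The sites lay between genes in 691 cases (56.5%) and in introns in 472 (38.6%), against 53.7% and 41.6% of other distal CTCF sites. The median distance to a protein-coding start was 21174 bp, against 25032 bp. Each autosome held between 31 and 109 sites and chromosome X held 23, which made up 1.45% of its distal CTCF sites, the lowest share of any chromosome that held a site. No site was found among the 143 distal CTCF sites of chromosome Y. Only 8 sites shared a NANOG peak with another site.

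CTCF enrichment covered a wide range. Fold enrichment in WT replicate 1 ran from 2.84 to 72.5 with a median of 14.7, and in WT replicate 2 from 2.84 to 66.9 with a median of 15.1. Medians at other distal CTCF sites were 17.2 and 17.4. When all distal CTCF sites were sorted into 10 classes of equal size by their mean WT −log10 q, the chosen sites made up 3.32% of the strongest class, 1.49% of class 8, 1.60% of class 6 and 3.03% and 2.70% of the weakest pair of classes, so they were most frequent at both ends. In classes 1 to 7 the CTCF core was less frequent at the chosen sites than at other distal CTCF sites (class 4, 2.52% beside 8.41%). In classes 8 to 10 it was more frequent (class 10, 34.8% beside 30.8%). NANOG enrichment had medians of 8.98 and 8.85 in WT, beside 9.13 and 9.12 at distal NANOG sites without CTCF. Across the 1223 sites the mean WT enrichments of the 2 factors ran weakly in opposite directions (Pearson's r = −0.16, Spearman's rho = −0.16, a description over sites of the same libraries).

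The presence of OCT4 or SOX2 divided the sites. OCT4 or SOX2 was called in both WT libraries at 289 sites (23.6%). At these sites NANOG enrichment was high, with medians of 20.6 and 21.3, and CTCF enrichment was low, with medians of 11.5 and 12. At the other 934 sites NANOG medians were 7.64 and 7.78 and CTCF medians were 16.3 and 16.4. TTGTNATGC near the CTCF summit was found at 3.46% of the former and 0.535% of the latter, the CTCF core at 9.69% and 13.7%, and CCANNAGGG, in the opposite order, at 22.1% and 15%.

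The first question was whether these sites kept CTCF in cells without HMGN1 and HMGN2. They did so nearly as often as other distal CTCF sites. A CTCF peak was called at 1168 of the 1223 sites in each DKO library, 95.5% (Wilson interval 94.2 to 96.5), beside 97.2% and 97.1% of other distal CTCF sites. Among all 54457 distal CTCF sites, 2.84% and 2.89% had no peak in DKO replicates 1 and 2. The sites were chosen by WT calls, so their WT shares are complete by choice and any change of calls could appear only as loss.

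As elsewhere, sites without CTCF in DKO were mostly weak in WT. Of the 55 sites without a CTCF peak in DKO replicate 1, 52 were in the weakest pair of strength classes, and in replicate 2 it was 53 of 55 (94.5% and 96.4%). Among other distal CTCF sites without CTCF in DKO the shares were 94.5% and 95.1%. In the weakest class 72.8% and 73.5% of the sites kept CTCF, beside 78.2% and 78.0% of other distal CTCF sites, and in class 2 it was 92.7% and 91.5% beside 95.2% and 94.6%. All chosen sites of classes 7 to 10 kept CTCF in both DKO libraries. When other distal CTCF sites were weighted to the strength classes of the chosen sites, 96.5% of them kept CTCF on average, 1.05 percentage points above the chosen sites in place of 1.67.

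Whether NANOG was kept less or more often than at NANOG sites without CTCF depended on how a match was defined. A NANOG peak overlapped the CTCF peak at 1122 sites (91.7%, 90.1 to 93.2) in DKO replicate 1 and at 1148 (93.9%, 92.4 to 95.1) in DKO replicate 2. At distal NANOG sites without CTCF the shares were 92.4% and 93.4%, so the chosen sites lay lower in the first library and higher in the second. This measure asks for NANOG within the CTCF peak, while sites without CTCF were examined at their NANOG peak. Examined at their own NANOG peak of WT replicate 1, a setting chosen after the values were seen, the chosen sites kept NANOG at 92.7% and 95.0%, above the sites without CTCF in both libraries. With summits required to lie within 100 bp in every match, which leaves 380 sites that meet the rule, the shares were lower on both measures, at a mean of 85.0% in the CTCF peak and 89.1% at the NANOG peak beside 90.8%. With an overlap of 50% of the shorter peak, met by 866 sites, the means were 90.3% and 93.2% beside 92.9%. Over all 41434 distal NANOG sites, 7.57% and 6.51% had no peak in the 2 DKO libraries. Of the sites without NANOG in DKO, 85 of 101 in replicate 1 (84.2%) and 62 of 75 in replicate 2 (82.7%) were in the weakest 3 of 10 NANOG strength classes, beside 85.7% and 86.8% at NANOG sites without CTCF. NANOG peaks in DKO at other distal CTCF sites, which had none in WT by choice, were called at 1.23% and 1.40%, with median fold enrichments of 4.68 and 4.52.

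**Figure D2:**
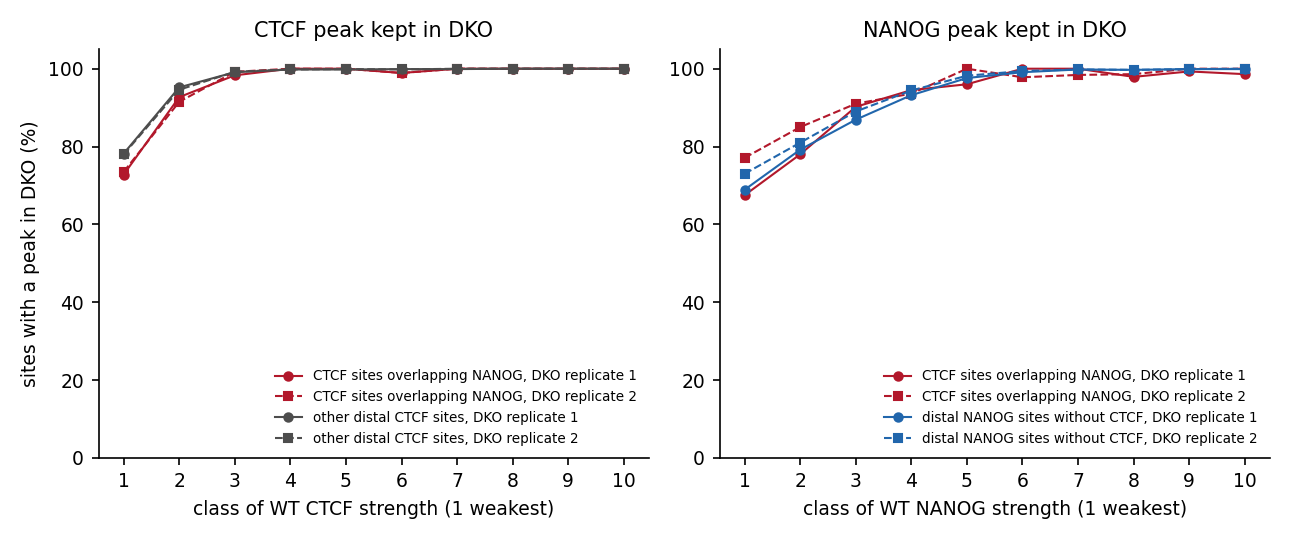
Share of sites (%) with a CTCF peak (left) or a NANOG peak (right) in each DKO library, by class of WT strength of that factor, from 1 (weakest) to 10. Red, the distal CTCF sites overlapping NANOG; grey, other distal CTCF sites; blue, distal NANOG sites without CTCF; circles and squares are DKO replicates 1 and 2. In the weakest CTCF class 72.8% and 73.5% of the red sites kept CTCF, and from class 7 upward all of them did.

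Taking both factors together, 1035 sites (84.6%) had CTCF and NANOG peaks in both DKO libraries. No CTCF peak overlapped the WT peak in either DKO library at 36 sites (2.94%, beside 1.62% of all distal CTCF sites). Of these, 23 had NANOG in both, where 89.1% of all chosen sites did. No NANOG peak overlapped the CTCF peak in either at 43 sites (3.52%, beside 4.02% of all distal NANOG sites). Of these, 37 had CTCF in both, where 93.9% of all chosen sites did. Neither factor overlapped in any DKO library at 3 sites. At 5 of the 43 sites the WT NANOG peak itself still met a NANOG peak of a DKO library, so NANOG remained beside the CTCF peak.

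The same rule was then applied to the DKO lists, to see how far choosing sites in 1 genotype sets the outcome in the other. It gave 1847 distal CTCF sites overlapping NANOG in DKO. Of these, 91.5% and 93.3% had CTCF in the 2 WT libraries and 70.3% and 73.6% had NANOG, both lower than the shares found in the forward direction. The CTCF and NANOG lists were longer in DKO than in WT. The mirrored rule was not repeated with lists of equal length, so the part of list length was not tested. For other distal CTCF sites of DKO the WT shares of CTCF were 94.5% and 95.3%.

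Counted library by library, with no choice of genotype, co-occupancy was more frequent in DKO. A NANOG peak overlapped 2.73% and 3.01% of the distal CTCF peaks in WT replicates 1 and 2, and 4.08% and 4.37% in DKO. The means were 2.87% ± 0.202 and 4.22% ± 0.206 (SD, n = 2 each), a difference of 1.35 percentage points, and both DKO libraries lay above both WT libraries. The exact two-sided permutation test gave p = 0.333, the smallest that 2 against 2 libraries allow. NANOG lists were longer in DKO. With the same number of top peaks taken from each library, the shares were 2.73% and 2.89% in WT and 3.17% and 3.30% in DKO, a difference of 0.425.

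Peak calls are coarse, and fold enrichment was therefore compared between genotypes with limma over all merged sites with a peak in all 4 libraries, after centring each library on its median. The median absolute log2 difference was 0.13 between WT and 0.12 between DKO replicates for CTCF, against 0.37 between genotypes. For NANOG it was 0.20 and 0.19, against 0.36. Of 56473 CTCF sites tested, 22.6% were higher and 25.2% lower in DKO at a Benjamini-Hochberg adjusted p under 0.05, 47.8% in all. The labels list input DNA of ESCs as single WT and DKO libraries of each kind, not analysed here. A difference between these inputs would enter each fold change between genotypes but not the spread between replicates, and its part was not tested. The 1223 chosen sites formed 1221 merged CTCF sites, of which 1151 had a peak in all 4 libraries, so sites that lost the peak are not in this test.

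At those 1151 sites CTCF was higher in DKO at 197 (17.1%) and lower at 346 (30.1%), with a median log2 fold change of −0.11 (quartiles −0.48 and 0.27). The median over all tested sites was −0.03. Other distal CTCF sites were higher at 22.8% and lower at 25%, or 21.2% and 26.0% when weighted to the strength classes of the chosen sites. Sites found by the rule in DKO were higher at 24.3% and lower at 23.7% of 1657 tested, with a median of 0.01, so the balance depended on the genotype in which sites were chosen. With −log10 p as the measure in place of fold enrichment, CTCF was higher at 114 and lower at 173 of the chosen sites and higher at 7042 and lower at 7539 of all sites, with medians of −0.04 and −0.03. Without centring, CTCF was higher at 217 and lower at 315 of the chosen sites. Over all sites the balance then turned, with 13960 higher and 12709 lower.

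The balance of CTCF changes differed between classes of WT strength. The classes rest on the WT libraries that also enter the fold change, and weak sites without a DKO peak were not tested, so falls at the top and rises at the bottom are favoured by the construction and are given as a description. In the strongest class CTCF was lower at 111 of 181 sites (61.3%) and higher at 21, with a median of −0.39, beside 57.1% lower and a median of −0.36 at other distal CTCF sites. In the weakest class it was lower at 2 of 97 and higher at 23, with medians of 0.15 and 0.16. In class 7, 41.1% of 95 sites were lower beside 25.5% of other distal CTCF sites, with medians of −0.25 and 0.05, the widest gap of the 10 classes. In classes 1 and 9 the share lower was below that of other distal CTCF sites (2.06% beside 4.38%, and 35.7% beside 39.2%), with medians in class 9 of −0.14 and −0.13. Sites with the CTCF core were lower at 67 of 153 (43.8%), and sites without it at 279 of 998 (28.0%). Their WT CTCF enrichment differed too, with medians of 30.4 and 13.0 in WT replicate 1.

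Of 39762 NANOG sites tested, 14% were higher and 16% lower in DKO, 30.0% in all. At the 1107 chosen sites with a peak in all 4 libraries NANOG was higher at 149 (13.5%) and lower at 188 (17.0%), with a median of −0.03, the same as over all sites. Which direction was the more frequent depended on the scaling: without centring 172 were higher and 160 lower, a shift shared by all sites, of which 6256 were then higher and 5606 lower. With −log10 p 70 were higher and 55 lower, while over all sites 2194 were higher and 2753 lower, with medians of 0.01 and −0.04. Without DKO replicate 1 or 2 the number higher was 88 and 98, and over all sites 3229 and 3476 in place of 5565, with the lone DKO library taken to vary as the WT pair does. Sites with OCT4 or SOX2 in both WT libraries had NANOG lower at 70 of 285 (24.6%) and higher at 44 (15.4%), against 118 (14.3%) and 106 (12.9%) of the other 823. Their median log2 fold changes were −0.06 and −0.02, and their WT NANOG enrichment differed as given above. The difference between the groups was not tested.

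CTCF and NANOG changes were correlated, most where their summits were close. Of 291 sites with CTCF lower in DKO and both factors tested, at any summit distance, NANOG was lower at 78 and higher at 14. Of 190 with CTCF higher, NANOG was lower at 18 and higher at 58. At the 572 sites with CTCF not past the threshold, NANOG was lower at 75 and higher at 71. Over all NANOG sites tested 16% were lower and 14% higher. Across all 1053 sites tested for both, the log2 fold changes had a Pearson's r of 0.40 and a Spearman's rho of 0.38. With summits within 50 bp r was 0.69 (rho 0.70, 163 sites), with summits 51 to 150 bp apart 0.52 (rho 0.50, 401 sites), and with summits over 150 bp apart 0.19 (rho 0.15, 489 sites). These describe sites within the same 8 libraries, and the input DNA that entered the fold enrichments of both factors was not analysed here, so its part was not tested.

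**Figure D3:**
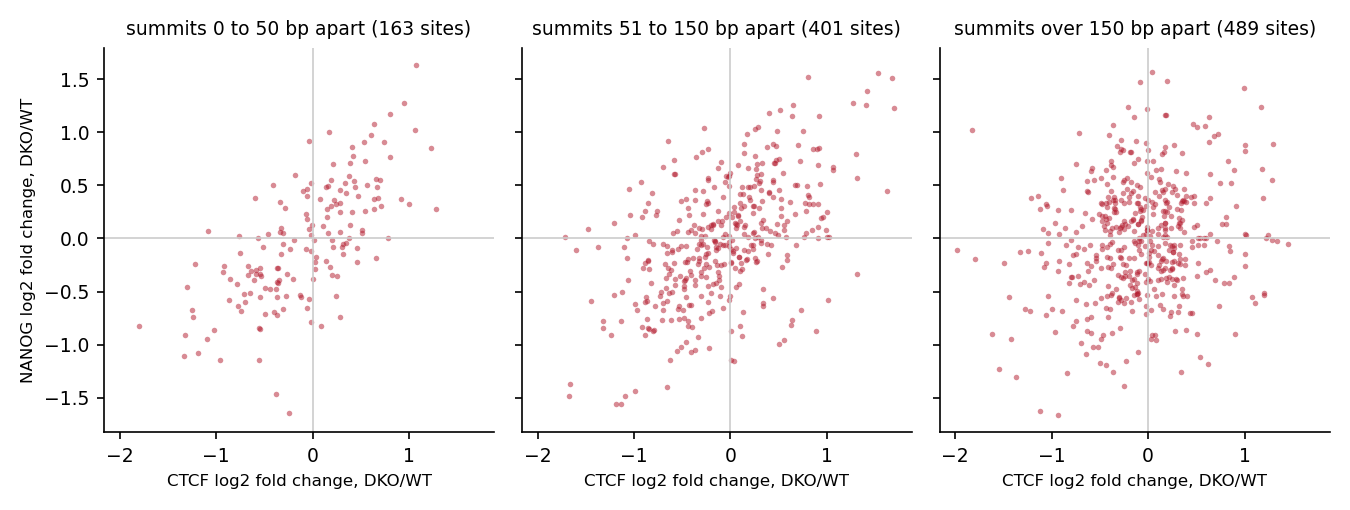
Log2 fold change (DKO over WT, library medians set equal) of CTCF on the horizontal axis and of NANOG on the vertical axis, 1 point per distal CTCF site overlapping NANOG that had both peaks in all 4 libraries of each antibody, in 3 panels by summit distance. The points follow a rising band at 0 to 50 bp (r = 0.69) and form a round cloud over 150 bp (r = 0.19).

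The 5 sites with the highest WT CTCF did not behave alike. The strongest by the lower of its WT −log10 q lay between genes 33220 bp from Tmem233, at chr5:116566473-116567118, with the core shown above 27 bp from the summit. Its CTCF fold enrichment was 70.1 and 65.0 in WT and 77.7 and 73.4 in DKO, and it did not pass the test. The site in a coding exon of Gdf15, which encodes a stress-induced cytokine, at chr8:73153513-73154483, had 72.5 and 63.9 in WT and 24.4 and 25.8 in DKO (log2 fold change −1.49 ± 0.09 SE, limma adjusted p = 0.00011). NANOG there was weak, at 5.40 and 5 in WT and absent and 2.48 in DKO.

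Like the Gdf15 site, those of Sctr and Vps13d held no match to the core. Over the chosen sites tested, CTCF was lower more often with the core (43.8%) than without it (28.0%). In an intron of Sctr, the secretin receptor gene, CTCF enrichment went from 65.2 and 63.2 in WT to 43.4 and 30.7 in DKO (log2 −0.86 ± 0.14, adjusted p = 0.002). Near Vps13d, a lipid transfer protein gene, it went from 61.7 and 59.1 to 26.7 and 27.9 (log2 −1.19 ± 0.08, adjusted p = 0.00011), and NANOG from 5.78 and 6.08 to 3.37 and 2.50 (log2 −1.08 ± 0.24, adjusted p = 0.0048). At these 3 sites the WT summits of CTCF and NANOG lay 19 to 47 bp apart. Near Sost, which encodes the WNT antagonist sclerostin and whose site holds the core, CTCF went from 63.6 and 59.6 to 44.0 and 43.4 (log2 −0.54 ± 0.07, adjusted p = 0.00071).

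The 5 largest CTCF falls past the threshold were chosen by their change between genotypes. Separation of WT and DKO values at these falls follows from that choice. The largest was between genes near Gm6578, at chr6:12075339-12075803, with 30.3 and 29.2 in WT and 7.92 and 7.71 in DKO (log2 −1.98 ± 0.12, limma adjusted p = 0.00011). NANOG, 247 bp away, was 14.8 and 16.6 in WT and 13.3 and 16.8 in DKO, and the sequence holds a core match 2 bp from the CTCF summit. In an intron of Ankrd33b, with Fam136b-ps as the nearest start, CTCF was 59.4 and 60.8 in WT and 16 and 15.7 in DKO (log2 −1.97 ± 0.08, adjusted p = 0.00011). Both sites kept the peak in DKO, so a count of calls does not show these falls. Near Tnfrsf18, a receptor of the TNF family, CTCF was 47.5 and 42.7 in WT and 13.1 in both DKO libraries (log2 −1.83 ± 0.10, adjusted p = 0.00011), while NANOG, with its summit 651 bp away, was 7.03 and 5.18 in WT and 13.3 and 12 in DKO. CTCF fell by 1.80 on the log2 scale near Pdp1, a phosphatase gene of pyruvate dehydrogenase, and near 8430427H17Rik. NANOG was 9.41 and 6.38 in WT and 2.97 and without a called peak in DKO at the site in Ankrd33b, 6.30 and 6.94 in WT and 3.46 and 4.30 in DKO near Pdp1, and 6.29 and 6.44 in WT and 4.42 and 7.57 in DKO near 8430427H17Rik. NANOG thus had no single direction at these 5 sites, which were picked for their CTCF change.

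The 5 largest CTCF rises included 2 sites where NANOG also gave 1 of its 5 largest. Near Itih5, at chr2:10064344-10064719, CTCF was 15.1 and 15.7 in WT and 46.7 and 45.7 in DKO (log2 1.53 ± 0.09, limma adjusted p = 0.00011). NANOG was 7.69 and 7.10 in WT and 24.0 and 21.0 in DKO (log2 1.56 ± 0.19, adjusted p = 6.6e-05), with the summits 118 bp apart. The intronic site of Slc10a7, at chr8:81179470-81179621, had CTCF at 4.78 and 4.96 in WT and 14.9 and 17.5 in DKO (log2 1.68 ± 0.17, adjusted p = 0.00034), and NANOG 4.19 and 4.15 in WT and 14.4 and 10.4 in DKO (log2 1.51 ± 0.25, adjusted p = 0.00059). SOX2 was called there in both libraries of DKO and none of WT. In an intron of Ncor1, which encodes a nuclear receptor corepressor, CTCF was 8.99 and 7.70 in WT and 28.9 and 27.1 in DKO (log2 1.70 ± 0.14, adjusted p = 0.00016). The other rises were near Nt5e, which encodes an ectonucleotidase, from 10.7 and 10.8 to 33.4 and 35.2, and near Rad18, a ubiquitin ligase gene of DNA damage tolerance, from 11 and 10.1 to 29.9 in both.

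**Figure D4:**
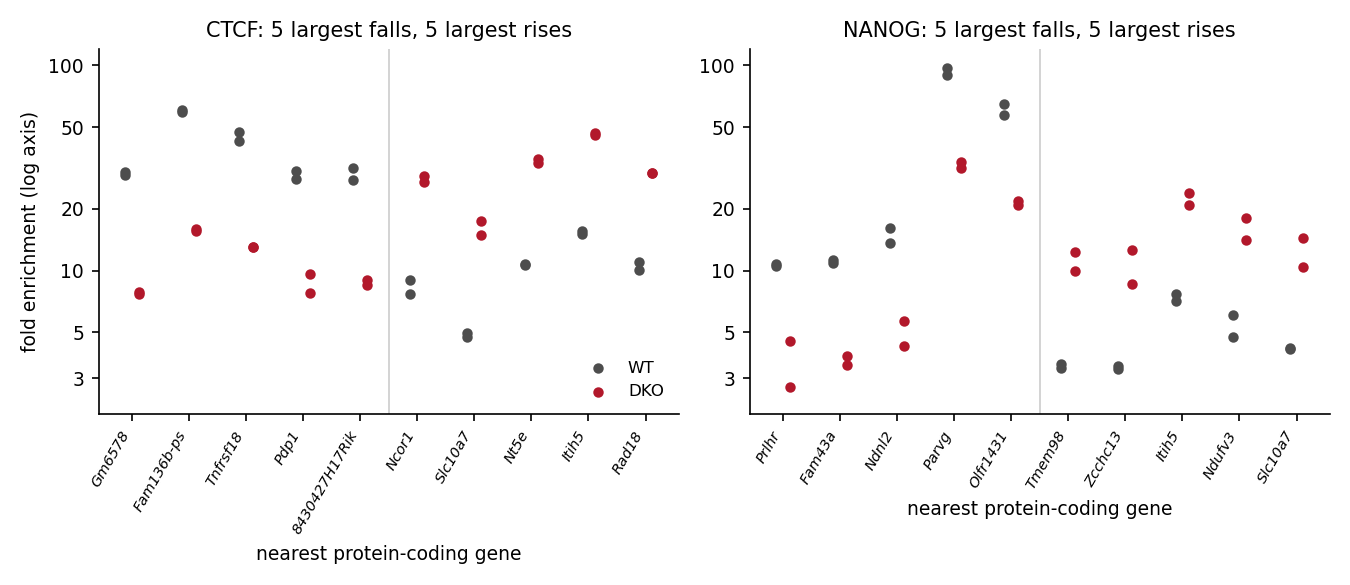
Fold enrichment (log axis) of CTCF (left) and NANOG (right) in each WT library (grey) and DKO library (red) at the sites with the 5 largest falls and 5 largest rises past the limma threshold, named by the nearest protein-coding gene. At each site the 2 WT points lie apart from the 2 DKO points, which follows from choosing sites by their change. Near Gm6578 CTCF was 30.3 and 29.2 against 7.92 and 7.71.

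The 5 sites with the highest WT NANOG all had CTCF below the median of the chosen sites in both WT libraries. Near Gm10203, at chr6:149079769-149079916, NANOG fold enrichment was 124 and 120.3 in WT and 55.2 and 48.2 in DKO (log2 −1.29 ± 0.09, limma adjusted p = 2.1e-06). CTCF was 6.02 and 4.77 in WT and had no peak in DKO. Near Ssr2, which encodes a translocon subunit, NANOG was 83.5 and 80.7 in WT and 62.3 and 54.0 in DKO (log2 −0.55 ± 0.10, adjusted p = 0.0011), while CTCF was 5.74 and 4.55 in WT and 10.5 and 11.9 in DKO (log2 1.08 ± 0.20, adjusted p = 0.0038). The interferon-induced gene Ifitm2 had a site of the same kind, with NANOG at 78.4 and 75.2 in WT and 55.3 and 48.8 in DKO (log2 −0.61 ± 0.10, adjusted p = 0.00054) and CTCF at 8.63 and 8.99 in WT and 20.7 and 18.6 in DKO (log2 1.11 ± 0.14, adjusted p = 0.00068). Those 2 sites carried OCT4, SOX2 and Klf4 peaks in all WT and DKO libraries, with CTCF and NANOG summits 195 bp and 290 bp apart in WT replicate 1. Near Gm949 NANOG was 118 and 117 in WT and 76.0 and 65.3 in DKO (log2 −0.78 ± 0.09, adjusted p = 5.1e-05). The site in an intron of Abca4, with Gm4609 as the nearest start and the TTGTNATGC match shown above, had 85.3 and 80.5 in WT and 95.3 and 69.0 in DKO and did not pass the test.

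The 5 largest NANOG falls started from WT enrichments above the medians of the chosen sites. In an intron of Parvb, with Parvg as the nearest start, at chr15:84112620-84113194, NANOG was 89.9 and 97.2 in WT and 33.7 and 31.8 in DKO (log2 −1.56 ± 0.10, limma adjusted p = 1.6e-06), and CTCF was 29.4 and 33.7 in WT and 14.4 and 14.2 in DKO. Near Olfr1431, at chr19:12273638-12273840, NANOG was 57.1 and 64.8 in WT and 21.9 and 20.9 in DKO (log2 −1.56 ± 0.12, adjusted p = 3.8e-06). Both sites had OCT4 and SOX2 in all 4 libraries of each antibody and hold the TTGTNATGC matches shown above. The other 3 of the 5 largest falls, near Prlhr, Fam43a and Ndnl2, started from 10.6 to 16.1 in WT and ended between 2.70 and 5.72 in DKO. Rises near Tmem98, Zcchc13 and Ndufv3, a gene of respiratory complex I, started from 3.33 to 6.10 and ended between 8.58 and 18. The Tmem98 site holds the core shown above, and CTCF there was 20 and 20.2 in WT and 54.9 and 34.7 in DKO.

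Some sites had no overlapping peak of a factor in either DKO library. Among those without CTCF, sites with the highest WT −log10 q of CTCF lay near Arl4d, Rps27a, Ammecr1l and Frmd6. Near Rps27a CTCF was 8.09 and 8.51 in WT, with NANOG kept at 16.2 and 16.8 in DKO. The Arl4d site was 138 bp wide with 5.67 in WT replicate 1, and its match in WT replicate 2 was a stronger peak with 24.2. The merged CTCF site that holds both had a peak in all 4 libraries and was lower in DKO (log2 −0.50 ± 0.12, limma adjusted p = 0.01), the only one of the 36 sites of which this was true. The corresponding sites for NANOG lay in introns of Emid2, Fam158a and Nrxn3, the gene of a neurexin, and near Srsf1, a splicing factor gene, and Ranbp3l. Near Ranbp3l NANOG was 6.65 and 7.82 in WT, and CTCF went from 24.4 and 30.1 to 8.44 and 10.2 (log2 −1.60 ± 0.16, limma adjusted p = 0.00031). The Emid2 site met a NANOG peak with its summit 800 bp away, at 13.3 and 13.9 in WT. The merged NANOG site there had a peak in all 4 libraries and was higher in DKO (log2 0.48 ± 0.17, limma adjusted p = 0.045), so NANOG was absent from the CTCF peak but not from its neighbourhood. The merged NANOG site of Fam158a also had a peak in all 4 libraries and did not pass the test.

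Pluripotency genes were the nearest gene at a larger share of the chosen sites than of all distal CTCF sites. The sites were chosen for NANOG, itself a factor of that network. Shares at NANOG sites without CTCF were not computed for this or the other gene lists, so nothing here is shown to be particular to the chosen sites. Of the 39 genes of a pluripotency network list found in the annotation, 20 were the nearest gene of at least 1 site, 25 sites in all, which is 2.04% of the chosen sites beside 0.419% of all distal CTCF sites. CTCF was kept at 24 of the 25 sites in each DKO library and NANOG at 22 and 23. CTCF was higher at 2 and lower at 9 of the 24 sites tested, with a median log2 fold change of −0.17, and NANOG was higher at 0 and lower at 3 of the 20 tested, with a median of −0.07, all by limma. Over all sites tested 22.6% were higher and 25.2% lower for CTCF, and 14% higher and 16% lower for NANOG.

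At Tet1, a gene of 5-methylcytosine oxidation, an intronic site at chr10:62359448-62359802 had NANOG at 43.5 and 52.8 in WT and 19.2 and 18.2 in DKO (log2 −1.40 ± 0.14, limma adjusted p = 1.6e-05) and CTCF at 12.5 and 12 in WT and 8.65 and 7.49 in DKO (log2 −0.66 ± 0.16, adjusted p = 0.013). At Klf4, a reprogramming factor gene, a site 53538 bp from the start had CTCF at 20.4 and 19 in WT and 10 and 10.8 in DKO (log2 −0.97 ± 0.14, adjusted p = 0.0012), with NANOG at 44.0 and 45.2 in WT and 51.8 and 50.4 in DKO. At Sox2 a site 73505 bp from the start had CTCF at 39.1 and 42 in WT and 20.4 and 18.7 in DKO (log2 −1.10 ± 0.09, adjusted p = 0.00016), and at Rest, a repressor of neuronal genes, CTCF went from 9.12 and 11.4 to 4.72 and 4.78 (log2 −1.15 ± 0.19, adjusted p = 0.0023). In the other direction, near Nr5a2, a nuclear receptor gene, CTCF was 18.6 and 15.7 in WT and 33.5 and 34.1 in DKO (log2 0.93 ± 0.12, adjusted p = 0.00067), and its NANOG peaks of 7.65 and 5.04 were absent from DKO.

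CTCF also fell near Tcl1, Id3, Zfp42 and Dppa2, by 0.35, 0.43, 0.42 and 0.64 on the log2 scale. NANOG fell near Sall4, a zinc finger gene of early embryos, from 17.0 and 20.5 to 12.2 and 12.8 (log2 −0.63 ± 0.18, limma adjusted p = 0.016), and in an intron of Mycn from 17.8 and 16.7 to 11.9 and 13.2 (log2 −0.51 ± 0.17, adjusted p = 0.04). In an intron of Esrrb, an orphan nuclear receptor gene, NANOG was 78.7 and 69.9 in WT and 74.4 and 65.8 in DKO, above a CTCF peak of 4.51 and 5.25 that was not called in DKO. Near Tbx3 and Utf1, a gene of undifferentiated cells, NANOG was 30.9 and 31.7, and 36.9 and 30.7, in WT and 31.4 and 28.7, and 30.0 and 29.3, in DKO. Near Lifr, the receptor gene for leukemia inhibitory factor, CTCF was 28.1 and 37.6 in WT and 38.4 and 34.6 in DKO. The sites near Tbx3, Utf1 and Lifr passed the test for neither factor.

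Other gene lists were thin. Early lineage genes had 4 sites (Cdx2, Elf5, Gsc and Pax6), 0.327% of the chosen sites beside 0.163% of all distal CTCF sites. All 4 kept both factors in both DKO libraries, and CTCF was lower by limma at 3 and NANOG at 1, where 25.2% and 16% of all tested sites were lower. Imprinted genes had 5 sites (Dio3, Ndn, Peg12, Snrpn and Zim1), 0.409% beside 0.125%, with CTCF lower or higher at 0 of the 3 tested by limma, where 47.8% of all tested sites passed, and NANOG lower at 2 of 5. Genes of CTCF and cohesin had 1 site, near the cohesin regulator gene Pds5a, which was lower for both factors.

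OCT4 and SOX2 were called at these sites at shares near those of NANOG sites without CTCF and far above those of other distal CTCF sites. OCT4 was called at 14.7% and 17.6% of the chosen sites in WT and at 33.2% and 37.4% in DKO, beside 16.4% and 18%, and 32.6% and 35.8%, of NANOG sites without CTCF. SOX2 was called at 23.2% and 22.6% in WT and 35.2% and 37.5% in DKO, beside 23.2% and 23.1%, and 35.2% and 37.2%. At other distal CTCF sites OCT4 was called at 0.245% to 1.04% and SOX2 at 0.00950% to 0.120% in any library. The rule did not use OCT4, SOX2 or Klf4.

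For OCT4 and SOX2 both DKO libraries lay above both WT libraries, and so did the lengths of their lists. OCT4 lists held 11140 and 12627 peaks in WT and 26742 and 30864 in DKO, and SOX2 lists 10324 and 10222 in WT and 16174 and 17144 in DKO. With lists cut to equal length, OCT4 was called at 14.7% and 16.4% of the chosen sites in WT and 19.1% and 19.6% in DKO. At NANOG sites without CTCF it was then called at 16.4% and 16.6% in WT and 18% and 18.1% in DKO. SOX2 was then called at 22.7% and 22.6% of the chosen sites in WT and 23.5% and 25.5% in DKO. At NANOG sites without CTCF it was called at 23% and 23.1% in WT and 23.1% in both DKO libraries. Both shares rose less there than at the chosen sites, and this difference was not tested. Klf4 was called at 12.9% and 8.75% in WT and 10.5% and 13.4% in DKO, with overlapping genotypes, and at 8.16% and 6.46%, and 7.43% and 8.72%, of NANOG sites without CTCF.

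**Figure D5:**
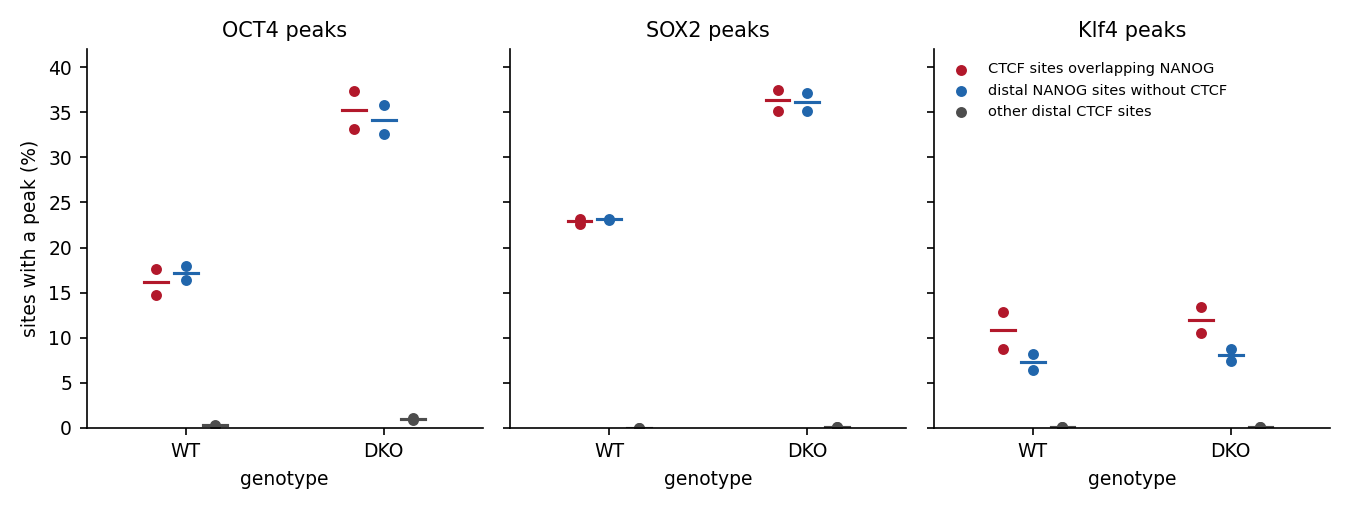
Share of sites (%) with an OCT4, SOX2 or Klf4 peak in each library, by genotype, at distal CTCF sites overlapping NANOG (red), distal NANOG sites without CTCF (blue) and other distal CTCF sites (grey). Points are the 2 libraries and bars their mean; red and blue points lie close together for OCT4 and SOX2, and grey points lie at or below 1.04%.

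NANOG was kept more often where OCT4 or SOX2 was also called in WT. At the 289 sites with OCT4 or SOX2 in both WT libraries NANOG was kept at 99.3% and 99.7% in DKO, and at the other 934 at 89.4% and 92.1%. WT NANOG enrichment differed between them as given above, and weak NANOG sites lost the call more often in general. CTCF was kept at 95.2% and 93.8% of the former and 95.6% and 96.0% of the latter. By summit distance, sites with summits within 50 bp kept CTCF at 93.8% and 92.8% and NANOG at 88.0% and 91.4%, and sites with summits over 150 bp apart kept CTCF at 96.2% and 96.3% and NANOG at 93.1% and 94.9%.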

How the data were processed

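ChIP-seq peak lists of CTCF, NANOG, OCT4, SOX2 and Klf4 in WT and DKO ESCs were used, 20 lists in all, and 44 lists of other cells were not used. The authors trimmed reads (cutadapt 1.16), mapped them to mm9 (BWA), marked duplicates, removed reads in blacklisted regions, and called peaks per library against input with MACS2 2.1.1.20160309; tools and versions are from the submitters' processing notes and the study's methods. The deposited fold enrichment is a ratio of pileup to local background at the summit, and the deposited −log10 p and −log10 q values are those of the authors' peak caller. Lists hold no counts, so depth is unknown and Wilson intervals cover counting error only.

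Peaks matched when they overlapped by 1 bp or more, and the match with the highest −log10 q gave the value. Distances were taken to protein-coding transcript starts of GENCODE vM1. For tests, peaks of the 4 libraries of an antibody were merged, log2 fold enrichment at sites present in all 4 was centred on the library median, and genotypes were compared with limma 3.58.1 (eBayes with trend) in R 4.3.3 with Benjamini-Hochberg adjustment over all sites at 0.05. DiffBind, which the study used, needs reads and was not run. The step was also run on simulated data with independent noise and few changed sites. The simulation held no input difference between genotypes, so it does not check the step for one. Standard errors beside log2 fold changes are those of limma. A merged site can hold more than 1 peak. The share of peaks per library was compared by an exact permutation test in scipy 1.17.1. Both strands of mm9 were searched for motifs with pysam 0.24.0. The CTCF core is a strict consensus. Python 3.11.15 and pandas 2.3.3 were used.

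Named sites were the 5 highest for each factor in WT, the 5 strongest that lost each factor in both DKO libraries, the 5 largest rises and falls past the threshold for each factor, the best site at each pluripotency gene, and the sites nearest the 1000 bp limit. Of the sites this rule gave, 1 is not reported here. The sites, lists and rules were chosen with earlier results of these data known. Replicates are biological per the series' design, and p values measure the spread between 2 libraries per genotype. Alternatives covered thresholds, overlap rules, list lengths, distance limits, centring, variance models, the measure, a replicate block and left-out replicates. The same number of top peaks for OCT4, SOX2 and Klf4, and NANOG retention at the NANOG peak, were chosen after the values were seen.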

Additional observations from a re-analysis of the deposited data

How the results depend on the processing

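The share of sites keeping CTCF in DKO (95.5%) was 95.9% at a −log10 q of at least 4, 94.7% at a fold enrichment of at least 4, 94.6% with the same number of top peaks from each library, 94.5% with summits within 100 bp (380 sites), 95.0% with an overlap of 50% of the shorter peak (866 sites), 95.5% beyond 2500 bp from a start and 95.6% with WT replicate 2 as base list. It lay below the share of other distal CTCF sites in each of these, and was 95.5% and 95.5% without either DKO replicate. The NANOG share (92.8%, beside 92.9% of NANOG sites without CTCF) was 89.8% at a fold of at least 4, 85.0% with summits within 100 bp (beside 90.8%) and 90.3% with 50% overlap (beside 92.9%). Its small difference from NANOG sites without CTCF changed sign at a −log10 q of at least 4 (93.2%), with the same number of top peaks (88.8%), beyond 2500 bp (92.9%) and with NANOG sites without CTCF weighted to the same strength classes (92.8% beside 92.6%). Examined at the NANOG peak of each site, settings chosen after the values were seen, it was 93.9% (sign changed), 89.1% with summits within 100 bp and 93.2% with 50% overlap (sign changed). Without DKO replicate 1 or 2 it was 93.9% and 91.7%. The cause of these shifts was not tested.

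The DKO minus WT difference in OCT4 share (19.2 percentage points) was 6.26 with summits within 100 bp and 3.80 with the same number of top peaks, that of SOX2 (13.5) was 5.64 and 1.80, and that of Klf4 (1.14) was −0.204 with the same number of top peaks. The share with the CTCF core (12.8%) was 16.7% for CCANNAGGG, which turned the order against other distal CTCF sites.

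With −log10 p as the measure, limma called CTCF lower at 173 and higher at 114 sites, and NANOG lower at 55 and higher at 70. With each replicate left out in turn, CTCF was lower at 274 to 298 and higher at 142 to 180 sites, and NANOG lower at 129 to 171 and higher at 88 to 144, the counts of NANOG higher without DKO replicates 1 and 2 being 88 and 98. With a replicate block CTCF was lower at 352 and higher at 197 sites and NANOG lower at 201 and higher at 163. Replicate numbers gave no sign of pairing, with correlations of the replicate differences of 0.0175 for CTCF and 0.00591 for NANOG. Among the named sites past the threshold, 309 of 340 repeated CTCF values and 205 of 237 NANOG values kept direction and call, the others kept direction only, and 0 turned.

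Depth and the input libraries limit these comparisons: list lengths differ between genotypes, a weak site near the calling threshold can be lost or found by depth alone, and fold enrichment divides by a background that was not analysed here. Where a replicate was left out, the lone library of that genotype was assumed to vary like the other pair.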

Other observations

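SOX2 was called in both libraries of DKO and none of WT at a subset of the sites. Of these, 94 were tested for CTCF, with 27 higher (28.7%) and 15 lower in DKO by limma and a median log2 fold change of 0.16, and 95 for NANOG, with 31 higher (32.6%) and 6 lower and a median of 0.27. Over all sites tested, 22.6% were higher for CTCF and 14% for NANOG. Sites with the same pattern of OCT4 calls had 26 higher and 38 lower of 142 for CTCF and 28 higher and 31 lower of 152 for NANOG, with medians of −0.00 and −0.05. The subsets were formed from the DKO calls of the other factors, and the difference between them was not tested.

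The 623 distal CTCF sites with NANOG in a single WT library had strong CTCF, with median fold enrichments of 22.0 and 22.1 in WT, and weak NANOG where it was called, with 5.11 and 4.90. NANOG was called at 51.5% and 55.5% of them in DKO, OCT4 at 9.63% and 10.1%, and SOX2 at 3.21% and 3.69%.

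At NANOG summits of distal NANOG sites without CTCF the CTCF core was found at 0.0551%, and CTCF peaks appeared in DKO at 0.433% and 0.413% of those sites, with median fold enrichments of 5.31 and 5.68.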
